A study of Mus musculus with 3 samples.

Results

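The genes described here were 10 regulators tied to Notch signalling and glial identity: the receptor Notch1 and the transcription factors Hes1, Hes5, Sox2, Sox9, Lhx2, Rax, Nfia, Nfib and Nfix. They were taken by name from the 18545 genes of a single-cell RNA-seq matrix of mouse retina, by a rule that lists genes and sets no threshold on their values, and followed across the cell clusters and libraries of the study, with cluster 0 and cluster 12 first. All 10 were in the matrix. The retinas came from C57BL/6J mice aged 8 weeks that were kept in darkness throughout life, and each of 3 groups gave 1 pooled library. WT mice were wild type on base chow and included females and males. The rd10-vehicle mice were females on the same chow with the Rd10 genotype, a point mutation in the rod phosphodiesterase gene Pde6b that leads to loss of rods and then cones, slowed by dark rearing. The rd10-TMB mice were Rd10 females fed tamsulosin, metoprolol and bromocriptine, which act on adrenergic and dopamine receptors. The labels give 4 mice pooled per library, whereas the text of the study gives fewer in both rd10 groups. Since each group had 1 library, no test between groups was possible, sex and genotype cannot be told apart in the ratios to WT, and every interval below is a 95% interval for counting error alone.

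The WT library held 4478 cells and 18882951 unique molecular identifiers (UMIs, counted transcript molecules), rd10-vehicle 5952 cells and 37002532 UMIs, and rd10-TMB 4812 cells and 29192530 UMIs. Cluster 0 had 530, 2492 and 1748 cells in WT, rd10-vehicle and rd10-TMB, and cluster 12 had 20, 88 and 33. The cell barcodes shared by a pair of libraries numbered 7 to 10. Levels are given as CPM, the UMIs of a gene scaled to 1000000 UMIs of the cluster in that library. UMIs count tags at transcript ends, and no level is compared between genes.

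Notch receptors are cut after they bind a ligand on a neighbouring cell, and the released domain joins the DNA-binding protein Rbpj to switch on genes such as the Hes repressors. In the developing retina this pathway holds cells back from neuronal fates, and Sox2, Sox9, Lhx2 and Rax mark progenitors and later Müller glia (MG), the radial glia that span the adult retina. Nuclear factor I proteins (Nfia, Nfib, Nfix) act late in retinal development and in astrocyte formation, and are associated with glial quiescence. Retinal astrocytes differ from MGs in origin: they migrate in from the optic nerve.

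The cluster labels were checked against marker lists. Cluster 0 carried 10 of 10 MG markers at 2-fold or more over the remaining cells, and Hes5 itself was among its top 10 genes by fold. Cluster 12 carried 7 of 10 astrocyte markers, with Pax2 at 228, 127 and 192 CPM against 0 in cluster 0 of WT, whereas Fgfr3 and Slc39a12 were at 0.711 CPM or less in cluster 12 and Aqp4, which was on the MG and astrocyte lists, was at 0, 48.3 and 7.10 CPM. It is called astrocyte-like below with that limit. Because the authors built the clusters from these same cells, differences between clusters are descriptions without a test.

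Hes5, a basic helix-loop-helix repressor and classic Notch target, lies at chr4:154960626-154962372 on the plus strand of GRCm38.p6 (RefSeq), the build used by the authors as mm10. Its upstream region is shown because Hes5 had the widest range of the 10 genes within cluster 0 as a ratio between libraries. The 250 bases before the start given in the RefSeq promoter table, which lie within the full span of the gene given above, held 2 matches to the Rbpj motif GTGGGAA, searched on both strands. They are printed 5′ to 3′ on the plus strand with the motif, or its reverse complement, in capitals and 10 flanking bases on each side.
Hes5 site starting 226 bases before the start, chr4:154960687-154960713: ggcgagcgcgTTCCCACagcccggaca
Hes5 site starting 83 bases before the start, chr4:154960830-154960856: gccgccgagtGTGGGAAcggccgcggc
Such a match was present in 1779 of 32851 RefSeq promoter windows (5.42%), and in none of the other 9 windows available, which belonged to Notch1, Sox2, Lhx2, Nfia and Nfix. The Hes-binding N box CACNAG was found once upstream of Notch1 and in 2 of the Nfix windows, against 36.7% of all windows. The full palindromic nuclear factor I motif was in no window of these 6 genes and in 0.0365% of all windows. A match is a string of letters and was not tested for binding.

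The other genes lie at chr16:30065357-30067796 (Hes1), chr3:34649995-34652461 (Sox2), chr11:112782210-112787757 (Sox9), chr2:26457902-26503822 (Notch1), chr2:38339271-38369737 (Lhx2), chr18:65934639-65939089 (Rax), chr4:97578066-98118876 (Nfia), chr4:82290173-82506751 (Nfib) and chr8:84704712-84801238 (Nfix), all as whole genes. Sox2 lies within the long non-coding gene Sox2ot on the same strand without sharing an exon. Exons of Notch1, Rax, Nfia, Nfix and Hes5 overlap those of genes on the opposite strand, so their levels depend on strand-aware counting.

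Orders of clusters are given for the 14 clusters with at least 20 cells in each library. By the median over the 3 libraries, Hes1, Hes5, Sox2, Lhx2 and Rax were highest in cluster 0, Sox9 in cluster 12, Notch1 in the mural-like cluster 14, and Nfia, Nfib and Nfix in clusters 3, 7 and 9. In WT alone, Nfia and Nfix were highest in cluster 12 instead, at 343 and 636 CPM, and in rd10-vehicle Sox2 was at 407 CPM in cluster 12 and 397 in cluster 0. Hes5 was the most restricted of the 10 by share of UMIs: 96.0%, 98.8% and 98.2% of all its UMIs in WT, rd10-vehicle and rd10-TMB came from cluster 0. In WT only 41.4% of Nfia UMIs and 45.5% of Nfib UMIs came from cluster 0, which had 11.8% of the WT cells. These shares also follow the size of cluster 0, which was 41.9% of cells in rd10-vehicle and 36.3% in rd10-TMB.

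**Figure D1:**
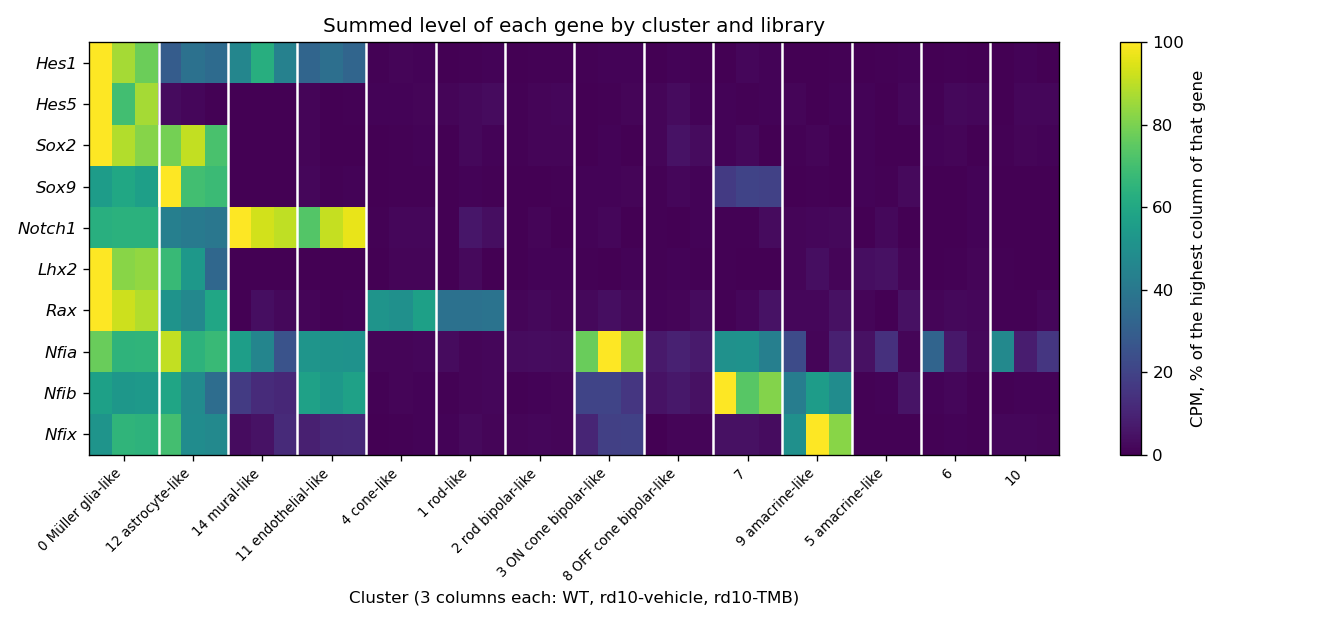
CPM of each gene in the 14 clusters with at least 20 cells per library, with 3 columns per cluster (WT, rd10-vehicle, rd10-TMB) and colour as percent of the gene's highest column. Hes5 is bright in cluster 0 alone, Rax also in cone-like and rod-like cells, Notch1 and Hes1 in vascular clusters, and Nfia, Nfib and Nfix in clusters 3, 7 and 9.

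Hes1 was at 1228 to 1586 CPM in cluster 0, above the mural-like cluster 14 (698 to 994), cluster 12 (463 to 591) and the endothelial-like cluster 11 (516 to 578), and in the other 10 of these 14 clusters it was at 26.9 CPM or less. The ranges of clusters 12 and 11 overlapped. Notch1 showed the same vascular and glial distribution with another order: 260 to 287 CPM in cluster 14, 211 to 277 in cluster 11, 181 to 184 in cluster 0 and 114 to 123 in cluster 12, with the first pair overlapping. Cluster 11 carried markers of endothelial and of mural cells, so those cell types were not separated there.

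Sox2, the progenitor and glial Sox factor, was at 367 to 449 CPM in cluster 0 and 320 to 407 in cluster 12, overlapping ranges, and at 21.9 CPM or less in the other 12 of the 14 clusters. Sox9 was at 611 to 898 CPM in cluster 12 and 497 to 534 in cluster 0. Among the other 12 of the 14 clusters, Sox9 was highest in cluster 7, at 151, 179 and 173 CPM in WT, rd10-vehicle and rd10-TMB. Cluster 7 was kept by its number and was led by Otor, Slitrk6 and Grik1. Its Sox9 level was similar in the 3 libraries, with intervals of both ratios to WT holding 0. In clusters with fewer cells, Sox9 was at 227 CPM in rd10-vehicle cells of cluster 18. It was at 145 and 228 CPM in lens-like cluster 17 of rd10-vehicle and rd10-TMB.

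Lhx2, a LIM homeodomain factor needed for eye formation, was at 351 to 427 CPM in cluster 0 and 142 to 287 in cluster 12, and at 19.9 CPM or less in the other 12. Rax, the retinal homeobox factor, was not restricted to glia. It was at 535 to 605 CPM in cluster 0, 303 to 343 in cone-like cluster 4, 281 to 359 in cluster 12 and 226 to 231 in rod-like cluster 1, and at 29.4 CPM or less in the other 10 of the 14 clusters. Levels above these limits were measured in clusters with fewer cells, with Rax at 383 CPM and Lhx2 at 271 CPM in the 23 rd10-vehicle cells of cluster 18 and Sox2 at 162 and 188 CPM in lens-like cluster 17 of rd10-vehicle and rd10-TMB. Rax in rods measured 226, 227 and 231 CPM in WT, rd10-vehicle and rd10-TMB, so the library with most rods and those that had lost rods gave levels within each other's intervals. The log2 ratio of rd10-vehicle to WT was 0.01 (-0.25 to 0.25) in rods and -0.05 (-0.22 to 0.12) in cones.

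Nfia was highest in ON cone bipolar-like cluster 3 at 291 to 377 CPM, with the ranges of cluster 12 and cluster 0 next and overlapping it in turn. Nfib was highest in cluster 7 at 454 to 614 CPM, above cluster 11 (327 to 352) and cluster 0 (326 to 349). Nfix was highest in amacrine-like cluster 9 at 456 to 908 CPM, a range that held that of cluster 0 (471 to 595) and overlapped that of cluster 12 (428 to 636). Rods, rod bipolar-like cells and cones had each of the 3 factors at 23.2 CPM or less. Cluster 7 was high in Nfib and at 41.7 CPM or less in Nfix.

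In MG-like cluster 0 no gene of the 10 was called in any pair of libraries. A gene was called where its ratio was at least 1.5-fold and the interval excluded no change, with a minimum of 50 UMIs summed over the pair. Of all genes tested, 7.13% were called higher and 7.21% lower in rd10-vehicle over WT (12404 genes), 5.53% higher and 6.58% lower in rd10-TMB over WT (11945 genes), and 0.806% higher and 1.85% lower in rd10-TMB over rd10-vehicle (13021 genes). With median-of-ratios size factors the split for rd10-TMB over WT moved from 661 higher and 786 lower to 789 and 588. The median log2 ratio of the 10 genes was -0.15, -0.19 and -0.01 for the 3 pairs in that order, beside -0.06, -0.08 and -0.02 over all genes.

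**Figure D2:**
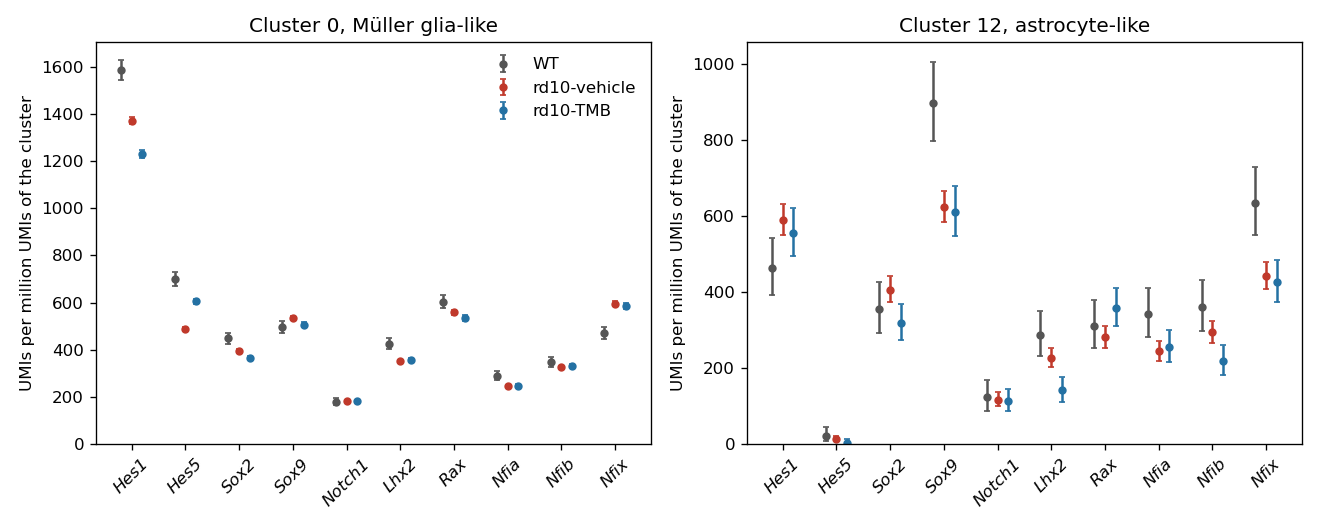
CPM of the 10 genes in cluster 0 (left) and cluster 12 (right) with exact Poisson 95% intervals, in WT (grey), rd10-vehicle (red) and rd10-TMB (blue). Hes5 is at 488 to 699.7 CPM in cluster 0 and 3.55 to 21.6 in cluster 12, whereas Sox9 is higher in cluster 12.

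Notch1, the receptor, measured 181, 184 and 183 CPM in cluster 0 of WT, rd10-vehicle and rd10-TMB. The 3 values lay within each other's intervals, and the log2 ratio of rd10-vehicle to WT was 0.02 (-0.11 to 0.14). The Hes repressors downstream of it were not level. Hes1 measured 1586, 1371 and 1228 CPM in the same order, with log2 ratios to WT of -0.21 (-0.25 to -0.17) and -0.37 (-0.41 to -0.33). Hes5 measured 699.7, 488 and 605 CPM. Its log2 ratio to WT was -0.52 (-0.59 to -0.46) in rd10-vehicle and -0.21 (-0.27 to -0.14) in rd10-TMB, and between the rd10 libraries, rd10-TMB over rd10-vehicle, it was 0.31 (0.27 to 0.35). Both Hes genes were thus highest in WT, but their order between the rd10 libraries was opposite, with Hes1 lower and Hes5 higher in rd10-TMB. The Hes5 ratio between the rd10 libraries lay at about the 95th percentile of all genes, which was also 0.31.

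Sox2 measured 449, 397 and 367 CPM and Lhx2 427, 351 and 357 CPM in WT, rd10-vehicle and rd10-TMB. Both measured below WT in the rd10 libraries, with log2 ratios of rd10-vehicle to WT of -0.18 (-0.26 to -0.10) and -0.28 (-0.36 to -0.20). Rax measured 605, 559 and 535 CPM, with log2 ratios to WT of -0.11 (-0.18 to -0.05) and -0.18 (-0.25 to -0.11). Sox9 measured 497, 534 and 507 CPM, and its ratio of rd10-TMB to WT held no change within its interval (0.03; -0.05 to 0.11).

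Nfix was the member with the highest ratio to WT in cluster 0. It measured 471, 595 and 586 CPM in WT, rd10-vehicle and rd10-TMB, log2 ratios of 0.34 (0.26 to 0.41) and 0.31 (0.24 to 0.39). Against WT cells that had an Xist UMI but none from Y-linked genes the same ratios were 0.16 (0.06 to 0.26) and 0.14 (0.04 to 0.24). Nfia ran the other way, at 292, 246 and 247 CPM, and Nfib measured 349, 326 and 333 CPM. The 2 rd10 libraries were within counting error of each other for Nfia, Nfib and Nfix (log2 ratios 0.01, 0.03 and -0.02).

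**Figure D3:**
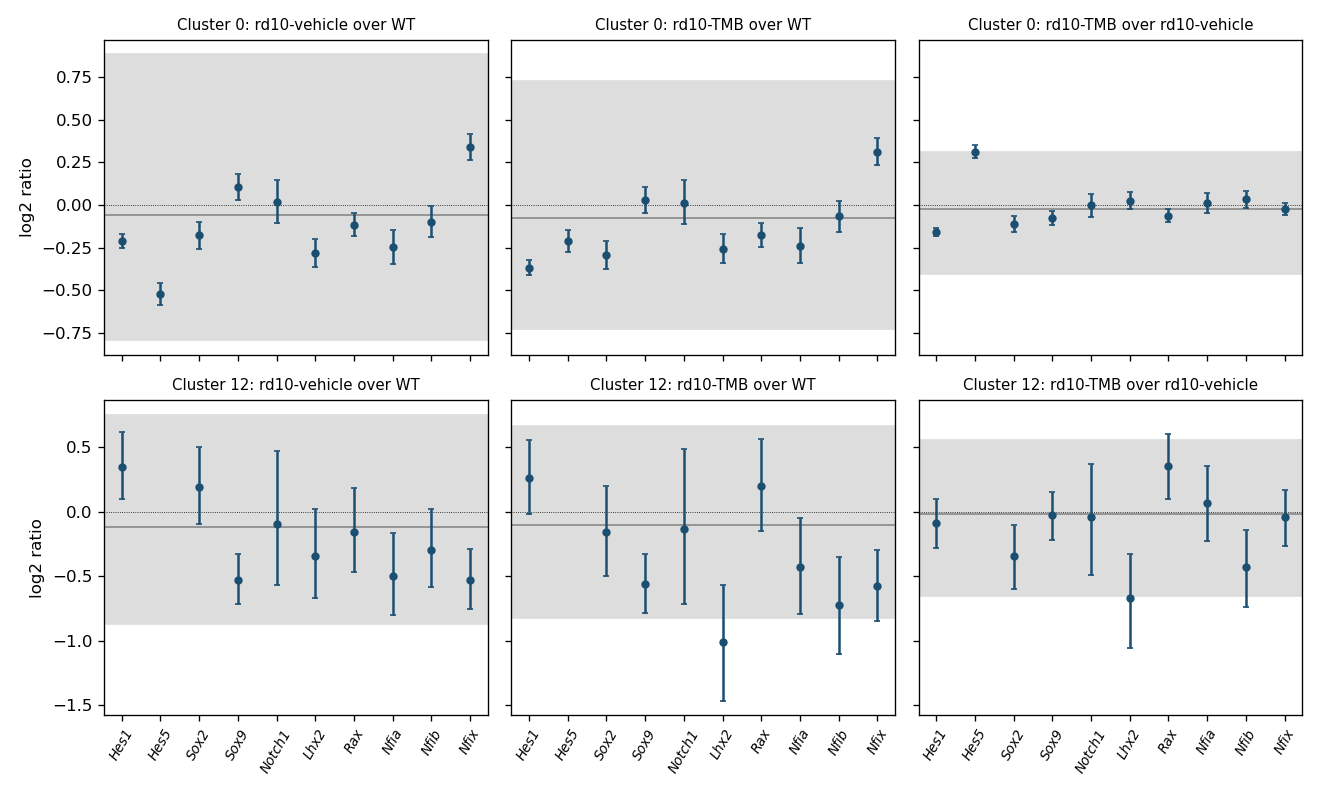
Log2 ratio of each gene between pairs of libraries in cluster 0 (top) and cluster 12 (bottom), with exact conditional 95% intervals. The grey band runs from the 5th to the 95th percentile of all genes tested, the grey line is their median and Hes5 has too few UMIs in cluster 12. In cluster 0 the members of both ratios to WT lie inside the band, from Hes5 at -0.52 to Nfix at 0.34 in rd10-vehicle over WT.

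The cells of cluster 0 were then split by Lcn2, which encodes lipocalin 2 and is raised in reactive glia. The split was chosen after values had been seen, and Lcn2 is a gene that the study itself picked from these libraries. Lcn2 UMIs were found in 1.70% of WT (9 of 530), 26.2% of rd10-vehicle (653 of 2492) and 17.2% of rd10-TMB cells (300 of 1748). After thinning each cell to 1000 UMIs the shares were 0.949%, 12.6% and 6.89%, against 4 of 954, 5 of 488 and 12 of 666 rods. The rods were taken as a guide to the level of free RNA, which was not measured. Median UMIs per cell before thinning were 6300, 8594 and 9455 in cluster 0 and 1423, 1406 and 1536 in rods.

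Hes5 was lower in cells with Lcn2 in each library. In rd10-vehicle it measured 221 CPM in cells with Lcn2 and 622 in cells without, a log2 ratio of -1.49 (-1.57 to -1.42). In rd10-TMB the levels were 99.7 and 767 CPM, and the log2 ratio was -2.94 (-3.09 to -2.80). In WT the 9 cells with Lcn2 had 81.9 CPM against 718. Of all genes with at least 200 UMIs, Hes5 had the lowest such ratio of 8159 genes in rd10-TMB, the fifth lowest of 9165 in rd10-vehicle and the eighth lowest of 2714 in WT. Hes5 also fell in steps with the number of Lcn2 UMIs. Cells with 0, 1, 2 to 4, and 5 or more Lcn2 UMIs had 622, 409, 345 and 114 CPM of Hes5 in rd10-vehicle and 767, 187, 147 and 36.9 CPM in rd10-TMB. The median depth of these groups of cells rose with their Lcn2 UMIs, from 8175 to 11151 UMIs per cell in rd10-vehicle and from 9064.5 to 13232 in rd10-TMB, and the part of depth in the grouping was not tested.

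**Figure D4:**
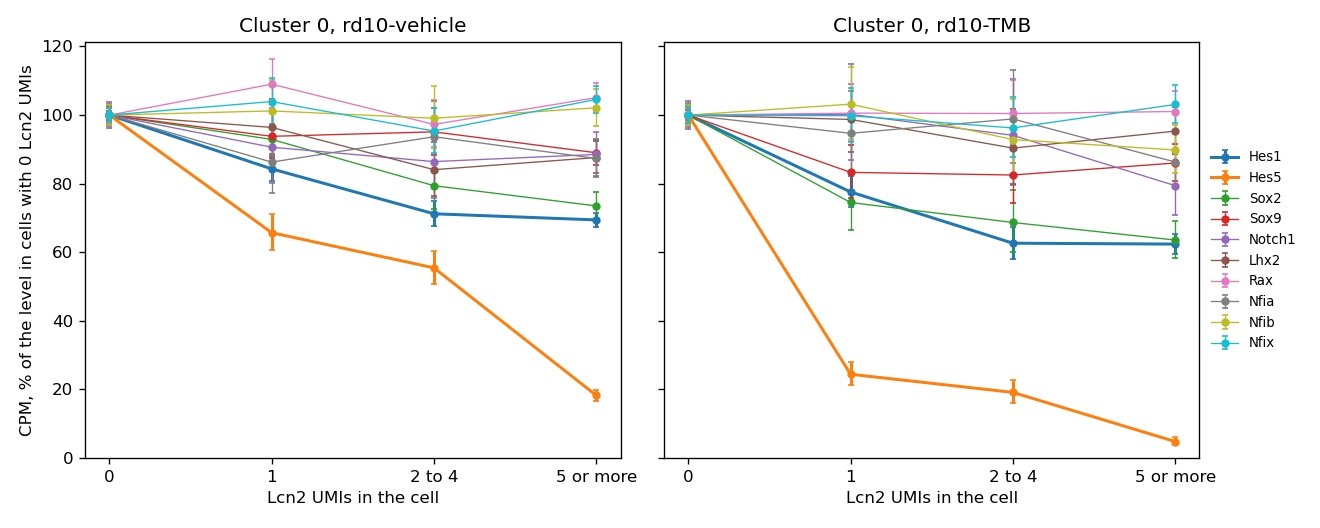
CPM of each gene in cluster 0 cells grouped by Lcn2 UMIs, as percent of its level in cells with 0 Lcn2 UMIs, with exact Poisson 95% intervals, for rd10-vehicle (left) and rd10-TMB (right). Hes5 (thick orange) ends lowest in both libraries, Hes1 (thick blue) and Sox2 lie between, and Rax, Nfib and Nfix remain near 100%.

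The other members moved less in this split. In rd10-vehicle Hes1 measured 1100 CPM with Lcn2 and 1508 without (log2 ratio -0.46; -0.49 to -0.42). The rd10-TMB values were 888 and 1336 CPM (-0.59; -0.64 to -0.54). Sox2 had log2 ratios of -0.34 and -0.57 in the same libraries. Rax had 0.06 and 0.01, Nfib 0.02 and -0.09, and Nfix 0.04 and 0.01, beside medians over all genes of 0.03 and 0.04. Sox9, Notch1, Lhx2 and Nfia lay between -0.24 and -0.07.

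In cells without Lcn2 the Hes5 ratio of rd10-vehicle to WT was -0.21 (-0.27 to -0.14), in place of -0.52 over all cells of the cluster. The ratio of rd10-TMB to WT changed sign, from -0.21 to 0.09 (0.03 to 0.16), while between the rd10 libraries it was 0.30 (0.26 to 0.34). The direction of Hes5 in rd10-TMB against WT therefore depended on whether the cells with Lcn2 were included.

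In astrocyte-like cluster 12, Hes5 was near its level in rods, which were taken as a guide to free RNA. It had 7, 19 and 2 UMIs in WT, rd10-vehicle and rd10-TMB, or 21.6, 13.5 and 3.55 CPM, which is 3.09%, 2.77% and 0.587% of its level in cluster 0. Rods had 10.0, 15.1 and 19.8 CPM. After thinning, a Hes5 UMI was seen in 1 of 20, 0 of 88 and 0 of 33 cells of cluster 12, against 29.6%, 22.5% and 26.1% of cells in cluster 0 and 0.943%, 1.84% and 1.20% of rods. Without thinning the shares in cluster 12 were 10.0%, 9.09% and 6.06%, at median depths of 11606, 13682 and 15912 UMIs. By the exact binomial interval, 0 of 88 thinned cells allows up to 4.11% and 0 of 33 up to 10.6% of cells with a Hes5 UMI at that depth, which limits detection and not expression. Hes1 in cluster 12 was instead at 29.2%, 43.1% and 45.2% of its cluster 0 level. The summed MG markers of cluster 12 were 19059, 22357 and 21497 CPM against 38288, 40813 and 41380 in cluster 0, of which Apoe, a gene that both glia use, made up 10258, 14835 and 14368 CPM in cluster 12. Scaled by that sum, cluster 0 would give 348, 267 and 314 CPM of Hes5.

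The remaining members were present in both glia. As percent of the cluster 0 level in WT, rd10-vehicle and rd10-TMB, Sox9 in cluster 12 was at 181%, 117% and 120%, Sox2 at 79.0%, 103% and 87.1%, Notch1 at 68.1%, 64.2% and 62.0%, and Nfia at 117%, 99.5% and 103%. Nfib was at 104%, 90.8% and 65.6%, and Nfix at 135%, 74.4% and 73.1%. Lhx2 and Rax were at 67.3%, 64.9% and 39.7% and at 51.6%, 50.4% and 67.0%. By this percent Lhx2 was the higher of the pair in WT and rd10-vehicle and Rax in rd10-TMB. The 10 MG markers themselves spanned a wide range in cluster 12 of WT. Aqp4 was at 0 and Crym at 2.98% of the cluster 0 level, Rlbp1, Glul and Slc1a3 were at 27.5%, 46.9% and 66.1%, Dkk3 was at 932 against 2072 CPM, and Vim was above cluster 0 (1805 against 923 CPM). The part of RNA from MGs in the Lhx2 and Rax levels of cluster 12 was not tested.

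Between libraries, 2 of the 9 members tested in cluster 12 were called lower in rd10-TMB over WT, 1 was called lower in rd10-TMB over rd10-vehicle and none was called in rd10-vehicle over WT. The shares of all genes called higher and lower were 4.38% and 8.94% (2672 genes), 2.52% and 3.95% (5111 genes), and 4.34% and 7.93% (4769 genes) in that order. Lhx2 was called in both ratios, at 287, 228 and 142 CPM (93, 321 and 80 UMIs) in WT, rd10-vehicle and rd10-TMB. The log2 ratio of Lhx2 in rd10-TMB was -1.01 (-1.46 to -0.57) to WT and -0.67 (-1.06 to -0.33) to rd10-vehicle. Nfib was at 361, 296 and 218 CPM, a log2 ratio of rd10-TMB to WT of -0.73 (-1.10 to -0.35). In that pair Nfib was no longer called with size factors, without the 5% of cells with the most UMIs or at a limit of 2-fold. Thinning left too few UMIs to test it. These sums rest on 20 WT and 33 rd10-TMB cells. Summed rod markers in cluster 12 were 315, 151 and 721 CPM with none at 0, and Lhx2 was called in both ratios with rod markers left out of the totals. Lhx2 was not called to rd10-vehicle at a limit of 2-fold. After thinning to 1000 UMIs per cell, and to WT at a minimum of 200 UMIs, it had too few UMIs to be tested. Over the alternatives that change the ratio, that of Lhx2 in rd10-TMB ranged from -2.18 to -0.82 to WT. To rd10-vehicle it ranged from -0.98 to -0.64. Summed mural markers were 1089, 1873 and 1736 CPM with none at 0. Of the MG markers in cluster 12, Rlbp1 was at 778, 342 and 261 CPM, Glul at 4234, 1918 and 2469 CPM and Car14 at 74.1, 46.2 and 35.5 CPM. Dkk3 was also below WT in both rd10 libraries. Apoe, Vim, Crym, Slc1a3 and Aqp4 were above WT in both, and Kcnj10 was above WT in rd10-vehicle and below it in rd10-TMB. The part of these cell types in the result was not tested.

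Sox9 measured 898, 625 and 611 CPM and Nfix 636, 443 and 428 CPM in cluster 12 of WT, rd10-vehicle and rd10-TMB, all under the 1.5-fold limit. Both were called lower in both ratios against those of the 20 WT cells that had an Xist UMI but none from Y-linked genes. So was Sox9 with cells of 10% mitochondrial share or less. Their log2 ratios of rd10-vehicle to WT were -0.53 (-0.72 to -0.33) and -0.53 (-0.75 to -0.29), against 0.10 and 0.34 in cluster 0. Hes1 was at 463, 591 and 556 CPM, a log2 ratio of 0.35 (0.10 to 0.61) in rd10-vehicle over WT against -0.21 in cluster 0. The median log2 ratio of the 9 members was -0.30, -0.43 and -0.05 for rd10-vehicle over WT, rd10-TMB over WT and rd10-TMB over rd10-vehicle, beside -0.12, -0.10 and -0.02 over all genes. Median-of-ratios size factors moved the median of all genes by 0.16 and 0.19 in the ratios to WT and turned the split of called genes from 207 higher and 378 lower to 350 and 215, and from 117 and 239 to 205 and 110. With means over cells the splits were 390 and 427, and 185 and 232.

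Among the other clusters, 12 had at least 20 cells in each library, and 22 pairs of member and cluster could be tested in each ratio to WT. In rd10-vehicle over WT 3 pairs were called higher and 3 lower, and in rd10-TMB over WT the same 3 and 3 were called. Over all genes in these clusters 4.39% were called higher and 5.47% lower (67020 tests) in rd10-vehicle over WT, and 3.73% and 5.13% (66494 tests) in rd10-TMB over WT. Between the rd10 libraries none of 21 pairs was called, with a background of 1.77% higher and 2.07% lower (54823 tests). The ratios to WT share the WT library, so a high or low WT value enters both.

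**Figure D5:**
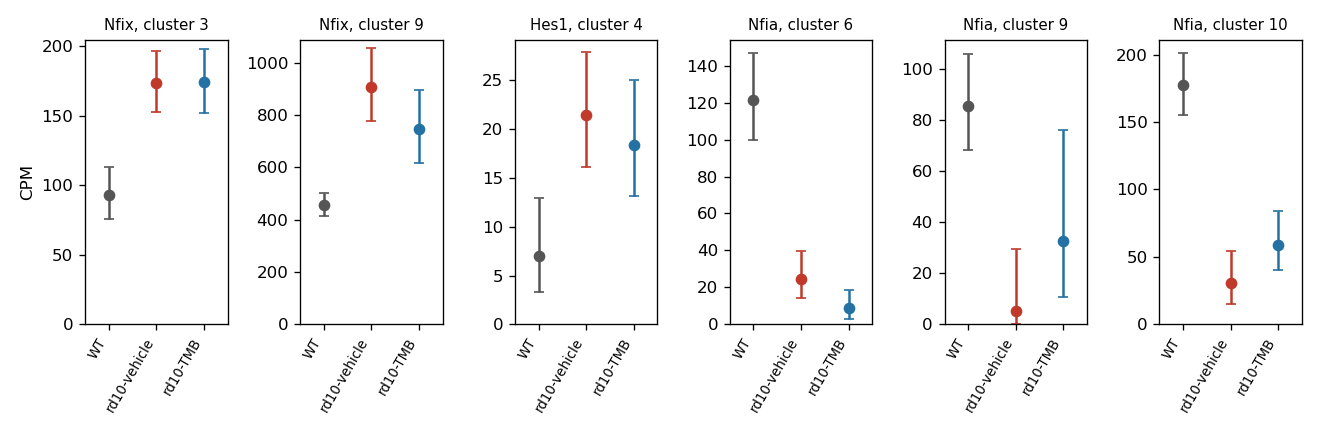
CPM with exact Poisson 95% intervals for the 6 pairs of gene and cluster called against WT, in WT (grey), rd10-vehicle (red) and rd10-TMB (blue). Nfix and Hes1 are higher in both rd10 libraries (3 panels on the left) and Nfia is lower in both (3 panels on the right).

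Nfix was higher in ON cone bipolar-like cluster 3, at 93.2, 173 and 174 CPM in WT, rd10-vehicle and rd10-TMB. Both log2 ratios to WT were 0.89, with lower bounds of 0.56 and 0.55, and this call was lost only at a limit of 2-fold among the alternatives run. Summed MG markers in cluster 3 were 178, 453 and 414 CPM with none at 0, and at the ratio that Nfix has to them in cluster 0 they correspond to 2.19, 6.61 and 5.86 CPM of Nfix. In amacrine-like cluster 9, with 295, 62 and 48 cells, Nfix measured 456, 908 and 748 CPM. Its ratio to WT was 1.998-fold in rd10-vehicle (lower bound 0.73 on the log2 scale), and its log2 ratio was 0.72 (0.40 to 1.01) in rd10-TMB. Summed ganglion cell markers there were 199.8, 658 and 559 CPM with 1 of 8 at 0, and their part in the result was not tested. Summed MG markers correspond to between 6.37 and 14.1 CPM of Nfix. Against WT cells that had an Xist UMI but none from Y-linked genes these were 0.48 (0.12 to 0.86) and 0.21 (-0.19 to 0.61) and no longer called.

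Hes1 was called higher in cone-like cluster 4 from low levels: 10, 55 and 40 UMIs, or 7.02, 21.4 and 18.4 CPM. The summed MG markers there were 131, 425 and 397 CPM and correspond to 5.41, 14.3 and 11.8 CPM of Hes1 at the ratio of cluster 0, and rods had 6.12, 9.29 and 15.0 CPM of Hes1. The call was lost in both ratios with cells of 10% mitochondrial share or less, after thinning, and against the same subset of WT cells (0.84 and 0.63), and in rd10-TMB also with cells of at least 1000 genes and without the 5% of cells with the most UMIs.

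Nfia was called lower in cluster 6 (122, 24.7 and 8.64 CPM in WT, rd10-vehicle and rd10-TMB), in cluster 9 (85.5, 5.31 and 32.5 CPM) and in cluster 10 (177, 30.4 and 59.1 CPM). In cluster 10 the log2 ratios to WT were -2.43 (-3.57 to -1.68) and -1.54 (-2.17 to -1.04). The summed amacrine markers moved with it in clusters 6 and 10. They were 2094, 172 and 132 CPM in cluster 6 and 1788, 334 and 881 CPM in cluster 10, with no marker of the list at 0 in either, and their part in the Nfia result was not tested. In cluster 9 the amacrine markers were at 2406, 2889 and 2998 CPM, and the ganglion cell markers at 199.8, 658 and 559 CPM, whose part in it was not tested. Cluster 9 rests on 83, 1 and 5 Nfia UMIs, and the mean over cells turned the ratio of rd10-TMB to WT to 0.40. All 3 Nfia calls were lost in both ratios after thinning. Thinning leaves fewer UMIs to test, so this loss cannot show whether the ratios depend on depth. Over the alternatives that change it, the log2 ratio of Nfia to WT kept its sign in clusters 6 and 10. It ranged from -2.85 to -1.59 (rd10-vehicle) and from -3.79 to -2.12 (rd10-TMB) in cluster 6. In cluster 10 it ranged from -3.04 to -1.70 and from -1.77 to -0.96. Against the subset of WT cells with an Xist UMI, Nfia was no longer called in cluster 9 in either ratio or in cluster 6 in rd10-TMB, and in cluster 9 the rd10-TMB call was also lost without the deepest 5% of cells.

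In the remaining cells, Nfia, Nfib and Sox9 of cluster 7 and Hes1, Notch1, Nfia, Nfib and Nfix of cluster 11 were not called. Notch1 in endothelial-like cluster 11 measured 211, 262 and 277 CPM, log2 ratios to WT of 0.31 (0.10 to 0.53) and 0.40 (0.17 to 0.63), under the limit. Summed mural markers there were 4435, 6914 and 6898 CPM and summed endothelial markers 9485, 11831 and 10934 CPM, with none at 0, and their part in it was not tested. Nfib in cluster 7 measured 614, 454 and 499 CPM, with log2 ratios of -0.43 (-0.70 to -0.17) and -0.30 (-0.57 to -0.03).

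The rest of the Notch pathway and of the glial and proneural regulators was taken from lists of 79 genes, of which 75 were in the matrix. Of the Notch ligands, 2 of 6 measured could be tested in cluster 0 against WT, and both were called higher in rd10-vehicle over WT and 1 in rd10-TMB over WT, beside 7.13% and 5.53% of all genes called higher. Dll1 was at 4.22, 7.52 and 7.99 CPM in WT, rd10-vehicle and rd10-TMB and was called in both rd10 libraries, and Jag1 was at 3.31 CPM in WT and 6.58 in rd10-vehicle. The WT sums behind these ratios were only 14 and 11 UMIs. No Notch receptor and none of the 10 genes of the Rbpj transcription complex was called in cluster 0.

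Of the 21 genes of Notch processing tested in cluster 0, Dtx4, a Deltex ubiquitin ligase, was called. It measured 24.1, 39.4 and 26.2 CPM in WT, rd10-vehicle and rd10-TMB, a log2 ratio of rd10-vehicle to WT of 0.69 (0.38 to 1.06) and between the rd10 libraries of -0.59 (-0.76 to -0.42). Nrarp, a Notch target that dampens the pathway, was the only target called among 7 tested, at 47.3, 26.3 and 33.1 CPM (rd10-vehicle over WT -0.86; -1.11 to -0.58). The median log2 ratio of those 7 targets, Hes1 and Hes5 included, was -0.32 in rd10-vehicle over WT and -0.21 in rd10-TMB over WT. Over all genes in cluster 0, 7.13% were called higher and 7.21% lower in rd10-vehicle over WT, and 1.85% lower in rd10-TMB over rd10-vehicle. Each of these calls is a single gene among 21 processing genes or 7 targets, and neither list is set apart from the background by it.

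Of 17 glial and progenitor regulators tested in cluster 0 against WT, Sox3 was called higher in rd10-vehicle over WT (1.51 and 5.72 CPM) and Prdm16 higher in rd10-TMB over WT (5.36 against 2.41 CPM). Each was 1 of 17, beside 7.13% and 5.53% of all genes called higher, and the WT sums were 5 and 8 UMIs. Sox3 was also called lower in rd10-TMB over rd10-vehicle (3.40 CPM), as 1 of 18 tested, beside 1.85% of all genes called lower. Of the proneural genes, 4 were tested in rd10-vehicle over WT and 3 in rd10-TMB over WT, and in each pair 2 were called lower, beside 7.21% and 6.58% of all genes, and 1 higher. Neurog2 and Neurod4 were called lower in both rd10 libraries, at 4.52, 2.03 and 2.21 CPM and at 11.1, 6.35 and 6.62 CPM. These levels are low, the WT sum of Neurog2 rests on few UMIs, and the part of RNA from neurons in them was not tested. Neurod1, which photoreceptors also express, was called higher at 29.2, 55.4 and 55.1 CPM. Summed rod markers in cluster 0 moved with Neurod1, at 1007, 1441 and 1561 CPM, with none at 0, and their part in it was not tested.

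In cluster 12, 1 of 2 receptors, 1 of 9 processing genes and 2 of 10 regulators tested were called lower in rd10-vehicle over WT, against 7.93% of all genes, and 1 of 4 processing genes and 2 of 8 regulators in rd10-TMB over WT, against 8.94%. Notch2 was called lower in rd10-vehicle over WT (66.8 against 108 CPM) and Dtx3 lower in both rd10 libraries (126.5, 75.3 and 76.3 CPM). Among the regulators Zfp36l2 was lower in both rd10 libraries (503, 329.7 and 311 CPM), Nr2e1 in rd10-vehicle and Six3 in rd10-TMB. Hes6 was called higher in rd10-TMB over rd10-vehicle, at 47.9 against 25.6 CPM from 27 and 36 UMIs, as 1 of 3 targets tested, beside 2.52% of all genes called higher.

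Most cells of the glial clusters carried several of the 10 genes. Without thinning the median was 8 members detected per cell in cluster 0 of WT and 9 in both rd10 libraries, which were deeper. At 1000 UMIs per cell the means were 3.34, 3.34 and 3.24 in cluster 0, 2.90, 2.32 and 2.15 in cluster 12, and 0.246, 0.309 and 0.294 in rods. Cells of cluster 0 with none of the 10 after thinning were 2.28%, 2.46% and 3.13%, against 75.8%, 72.1% and 72.8% of rods. Sox9 was found in 30.9% (27.0 to 35.1), 38.1% (36.2 to 40.1) and 35.5% (33.2 to 37.8) of thinned cluster 0 cells, and in 0.314%, 1.02% and 0.300% of rods.

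The genes with the most similar profile over the 16 clusters of at least 50 cells, by Pearson correlation of log2(CPM + 10) among 11388 genes, differed between members. For Hes5 they were Il33, Popdc3 and Fxyd3 (r of 0.98 each), and for Hes1 they were Il17rc (0.98), Trip6 (0.98) and Notch1 (0.97). Hes1 and Hes5 themselves had r = 0.41. For Lhx2 and Sox2 the lists shared Espn (0.98 and 0.97), and the pair had r = 0.95. For Rax it was Crb1 (0.94), a gene of glial and photoreceptor adhesion. The closest genes for Sox9, Notch1, Nfia, Nfib and Nfix were Prodh (0.92), Copz2 (0.98), Sh3pxd2b (0.80), Pik3ip1 (0.86) and Agt (0.87). The lowest pair among members was Rax with Nfia (r = -0.06). The clusters share libraries and differ in size and depth, so these correlations are descriptions.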

How the data were processed

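The authors dissociated retinas with papain, made 10x Genomics v3 libraries, aligned reads to mm10 with Cell Ranger 6.0.1, removed doublets with Scrublet before deposit, and clustered cells of at least 500 genes in Seurat 3.2.2 after Harmony correction. Cell Ranger was run with its default parameters, and no separate strand setting is named in the sources used here. Values deposited in the matrix are on a natural log scale, ln of 1 plus the UMIs per 10000. The deposited cell table gives total UMI counts, genes, library and cluster for every cell.

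The log values were converted to UMI counts, and 100% of 32620606 entries came out whole within 0.001 UMI. Recovered sums matched the deposited totals in all 15242 cells. No cells were removed and no doublet caller was run. UMIs were summed by cluster and library. Intervals are exact (Poisson for levels, Clopper-Pearson for shares, conditional binomial for ratios), at 95%, and 1 UMI was added to each library before a log2 ratio was taken. Cells are not replicates, so no p-value was computed. A cluster name needed at least 3 markers at 2-fold over the remaining cells and 20 CPM, but this rule alone did not fix the names. Clusters 2, 4, 9 and 11 also passed it for a type other than the name used. Clusters 6, 7 and 10 passed it and were kept by number. For shares, cells were thinned to 1000 UMIs and shallower cells left out. Promoter windows of RefSeq on GRCm38.p6 were found for 6 of the 10 genes (not for Hes1, Sox9, Rax and Nfib).

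The text names all members, each listed pathway gene called in cluster 0 and the nearest profiles. Genes called in cluster 12 and the Lcn2 split were added after their values were seen. The rule for the members uses no measured value, but the members and lists were chosen with earlier results of these data known. Alternatives covered the scaling, cell filters, thinning, WT cells that had an Xist UMI but none from Y-linked genes, the pseudocount, the fold limit, the UMI minimum, and cells without Lcn2 (chosen after seeing the data). The WT subset by Xist depends on the UMIs detected in each cell and need not hold all female cells. Python 3.11.15, numpy 2.4.6, scipy 1.17.1, pandas 2.3.3 and matplotlib 3.10.9 were used, and the ratio script was tested on simulated counts.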

Additional observations from a re-analysis of the deposited data

Results flagged for a closer look

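For 5 ratios, cluster 12 was opposite in sign to cluster 0 with both intervals excluding no change, and the difference between the clusters was not tested. In rd10-vehicle over WT the log2 ratio in cluster 12 was 0.35 for Hes1 (-0.21 in cluster 0), -0.53 for Sox9 (0.10 in cluster 0) and -0.53 for Nfix (0.34 in cluster 0). In rd10-TMB over WT it was -0.57 for Nfix (0.31 in cluster 0). In rd10-TMB over rd10-vehicle it was 0.35 for Rax (-0.06 in cluster 0). Cluster 12 has 20 WT cells, and none of the 5 ratios passed 1.5-fold.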

How the results depend on the processing

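No paired analysis was possible because each group has 1 library. In cluster 0 no member was called under any alternative except the lower fold limit, set between no change and 1.5-fold, which gave 2 in rd10-vehicle over WT (Hes5 lower, Nfix higher) and 1 in rd10-TMB over WT (Hes1 lower). In cluster 12, rd10-vehicle over WT gave 1 call with means over cells, 1 with cells of 10% mitochondrial share or less, 2 against WT cells that had an Xist UMI but none from Y-linked genes and 4 at the lower fold limit, against 0 as reported. For rd10-TMB over WT, reported as 2, size factors gave 1, leaving out the 5% deepest cells 1, thinning 0, cells of 10% mitochondrial share or less 3, WT cells with Xist 4, the 2-fold and lower limits 1 and 5, and a minimum of 200 UMIs 1. For rd10-TMB over rd10-vehicle, reported as 1, thinning gave 0, 2-fold 0 and the lower limit 4. In the other clusters the 6 calls in rd10-vehicle over WT became 2 after thinning, 4 against WT cells with Xist, 11 at a minimum of 20 UMIs and 3 at 200. The 6 in rd10-TMB over WT became 3 after thinning, 3 against WT cells with Xist, 11 at 20 UMIs and 3 at 200. The 0 in rd10-TMB over rd10-vehicle became 1 without the deepest cells, 2 at the lower fold limit and 1 at 20 UMIs. Counts within 1.5 times the reported one are not listed for the other clusters, apart from that for WT cells with Xist. Thinning and the higher minimum leave fewer UMIs to test, and the cause of the other shifts was not tested. Nfia in cluster 9, rd10-TMB over WT, turned to 0.40 with means over cells. In cluster 0 the sign of Notch1 changed over the alternatives in all 3 ratios, as did Hes5 and Sox9 in rd10-TMB over WT, Nfib in both ratios to WT, and Lhx2 and Nfia in rd10-TMB over rd10-vehicle. Hes5 ranged from -0.56 to -0.21 in rd10-vehicle over WT and from 0.26 to 0.35 in rd10-TMB over rd10-vehicle. In cluster 12 the number of cells (20, 88 and 33) limits the sums, and Hes5 had 2 to 19 UMIs there.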

Other observations

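Cluster 17, which carried lens markers and had no WT cells, held Hes5 at 16.6 CPM (8 UMIs, 18 cells) in rd10-vehicle and at 585 CPM (59 UMIs, 19 cells) in rd10-TMB. Hes1 in the same cells was at 197 and 476 CPM. Summed MG markers there were 8940 and 15648 CPM, summed rod markers 696 and 5047 CPM, each list with no marker at 0, and median UMIs per cell 20634 and 3556. Their part in the Hes5 and Hes1 levels was not tested.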
